A study of Mus musculus with 4 samples.

Results

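Dividing cortical radial glia were examined in single-cell RNA sequencing of the mouse cortex at E16.5. Members were selected on detected transcripts. A cell barcode was a member when it had at least 500 detected genes and at least 1 UMI (a counted molecule) in 3 or more of the radial glia genes Slc1a3, Hes5, Mfge8, Ttyh1, Ddah1 and Aldoc. It also needed 2 or more of the division genes Mki67, Top2a, Cdk1, Ccnb1, Cenpf and Ube2c, at most 1 of the oligodendrocyte genes Olig1, Olig2, Pdgfra and Sox10, and no UMI of Dlx1, Dlx2, Eomes, Wnt8b, Rspo1 or Rspo2. This chose 539 barcodes, 2.83% of the 19015 barcodes with 500 or more genes. The 4 tables held 19237 barcodes in all. They were 153 and 123 barcodes of COP1 KO replicates 1 and 2, and 129 and 134 barcodes of HET replicates 1 and 2.

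The study compared 2 COP1 KO mice with 2 HET mice, all C57BL/6, with 1 library from each mouse. The titles call the COP1 KO samples CKO and name no Cre driver, and the labels do not define HET, so the cells in which the gene is lost and the alleles that HET mice carry are not known here. The cortex was dissociated with papain, and the 10x Chromium 3′ kit, version 2, was used, which reads the 3′ ends of transcripts. The labels give no litter or replicate number, and replicates are numbered here in accession order only to name them. By Xist and Y-linked counts, replicate 1 of each genotype was female and replicate 2 male.

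Radial glia are the stem cells of the developing cortex. Their bodies lie along the ventricle, they send a fiber to the outer surface, and they divide at the ventricle to renew themselves and to give neurons or intermediate progenitors. Toward the end of neurogenesis they turn to making astrocytes and oligodendrocyte precursors. COP1 is the part of a CUL4 ubiquitin ligase that recognizes its substrates, among them the transcription factors JUN, ETV1, ETV4 and ETV5, which it marks for destruction, and the Tribbles proteins act as adaptors in this process.

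Total counts per library were alike, from 28049007 to 28988265. The members were shallower in COP1 KO, with medians of 6436 and 7135 UMIs per barcode in COP1 KO and 7480 and 8158.5 in HET. Their summed counts were 1154386 and 983859 in COP1 KO and 1040739 and 1236883 in HET. Median mitochondrial shares were 1.25% and 1.22% in COP1 KO members and 1.03% and 1.07% in HET members. Between 22 and 40 barcode sequences were shared by pairs of libraries, and no 2 members shared one.

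The label was checked against genes that the rule did not use. Sox2, which keeps neural cells in a stem state, was found in 96.3% ± 0.56 of COP1 KO members and 91.6% ± 2.38 of HET members (SD, n = 2 libraries each). Fabp7, a fatty acid binding protein of radial glia, was found in 96.4% ± 0.473 of COP1 KO members and 97.7% ± 1.14 of HET members. After thinning to 3000 UMIs, Sox2 and Fabp7 were still found in 87.0% and 93.4% of COP1 KO members and 76.5% and 95.2% of HET members. In neuron barcodes (Neurod6 and Neurod2 both detected, none of the radial glia or division genes of the rule) thinned alike, whose medians before thinning were 4684 and 5299 UMIs in COP1 KO and 5349.5 and 5671 UMIs in HET, the shares were 3.69% and 19.1% in COP1 KO and 2.46% and 22.4% in HET. The dorsal gene Emx1 was found in 28.9% ± 3.93 of COP1 KO members and 43.6% ± 7.97 of HET members. Emx2 was found in 52.8% ± 3.51 of COP1 KO members and 62.4% ± 0.601 of HET members. After thinning, Emx1 was rarer in members (12.5% in COP1 KO, 18.5% in HET) than in neuron barcodes (26.9% in COP1 KO, 32.8% in HET). Emx2 was more frequent in thinned members (29.8% in COP1 KO, 38.0% in HET) than in thinned neuron barcodes (7.24% in COP1 KO, 8.06% in HET). Ventral genes were rarer: Gsx2 was found in 3.42% ± 2.06 of COP1 KO members and 1.15% ± 0.569 of HET members, and Dlx5 in 8.07% ± 1.24 of COP1 KO members and 4.95% ± 0.671 of HET members. Thinned members held Dlx5 in 5.96% in COP1 KO and 2.81% in HET. Thinned neuron barcodes held it in 2.27% in COP1 KO and 1.83% in HET. The rule requires no dorsal gene, and whether some members come from outside the dorsal cortex was not tested.

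Some members carried sets of markers of another cell type. At least 3 vessel markers of 7 were found in 6 and 3 COP1 KO members and 4 and 4 HET members, and at least 3 hemoglobin genes of 5 in 7 and 3 COP1 KO members and 2 and 4 HET members. At least 3 of 5 meningeal collagen-type markers were found in 1 member of each library, and at least 3 of 4 neuron markers in 4 and 3 COP1 KO members and 8 and 3 HET members. No member had 3 microglia markers. Hemoglobin made up 16546 and 8907 CPM (counts per 1000000 of the summed member counts) in COP1 KO and 4660 and 2351 CPM in HET. In COP1 KO replicate 2, 1 barcode held 8608 of 8763 hemoglobin UMIs. Each result below that rests on such genes is also given without these barcodes, which leaves 496 members, 140 and 114 in COP1 KO and 117 and 125 in HET.

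The genes that chose the members are given as a description only. All 6 division genes were detected in 58 and 56 COP1 KO members and in 57 and 59 HET members. Mki67, a protein of dividing cells, stood at 196 and 198 CPM in COP1 KO and 222 and 195 CPM in HET. Ube2c, which helps degrade mitotic cyclins, stood at 742 and 901 CPM in COP1 KO and 987 and 893 CPM in HET. Slc1a3, the glutamate transporter GLAST, stood at 709 and 761 CPM in COP1 KO and 613 and 618 CPM in HET, and Aldoc, a glycolytic aldolase, at 399 and 445 CPM in COP1 KO and 686 and 663 CPM in HET. At the edge of the rule, barcodes with exactly 2 division genes (30 and 18 in COP1 KO, 18 and 18 in HET) had 7875 and 7386 CPM of G2 and M phase genes that the rule does not use in COP1 KO, and 10027 and 9501 CPM in HET. Barcodes just outside, with exactly 1 division gene, had 6701 and 5049 CPM in COP1 KO and 8206 and 5749 CPM in HET. Over all members the values were 19657 and 22879 CPM in COP1 KO and 24434 and 23094 CPM in HET.

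The oligodendrocyte clause removed more barcodes in COP1 KO. Of the barcodes that passed the radial glia and division clauses, it removed 25.0% and 29.1% in COP1 KO (78 of 312 and 83 of 285) and 5.36% and 9.02% in HET (12 of 224 and 22 of 244). Every one of the barcodes that this clause alone kept out (55 and 64 in COP1 KO, 8 and 15 in HET) held Olig1, and nearly all held Olig2. Neither Pdgfra nor Sox10, which mark committed oligodendrocyte precursors, was detected in 65.5% and 56.3% of them in COP1 KO and 62.5% and 46.7% in HET. The clause on Dlx, Eomes, Wnt8b and R-spondin genes removed like shares, 34.6% and 39.1% in COP1 KO and 39.2% and 39.6% in HET. Within the members, 28 and 36 COP1 KO barcodes and 10 and 8 HET barcodes held 1 oligodendrocyte gene, mostly Olig2.

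The share of dividing radial glia among barcodes did not separate the genotypes. It was 2.90% (exact 95% interval 2.46 to 3.39) and 2.57% (2.14 to 3.06) in COP1 KO, and 2.81% (2.35 to 3.33) and 3.06% (2.57 to 3.62) in HET. The intervals cover counting error only, and the genotypes overlapped. The difference of means was −0.200 percentage points (exact two-sided permutation test, p = 0.667). A permutation of 2 libraries against 2 cannot give a p below 0.3333. Its direction turned with the rule: the difference was 0.375 points when every barcode was first thinned to 3000 UMIs and 0.732 points without the oligodendrocyte clause.

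Among barcodes that passed the rule whatever their division genes, the dividing share was lower in both COP1 KO libraries. It was 50.0% (153 of 306) and 46.2% (123 of 266) in COP1 KO, and 55.6% (129 of 232) and 55.1% (134 of 243) in HET. The means were 48.1% ± 2.66 in COP1 KO and 55.4% ± 0.325 in HET (SD, n = 2 each), a difference of −7.25 points with an exact permutation p of 0.3333, the smallest that the design allows. The difference was −16.9 points under a stricter rule (4 radial glia genes, 3 division genes and no oligodendrocyte gene) and −3.01 points without the oligodendrocyte clause. COP1 KO members were shallower. With barcodes thinned to 3000 UMIs the shares were 47.8% and 47.1% in COP1 KO and 53.7% and 52.0% in HET.

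**Figure D1:**
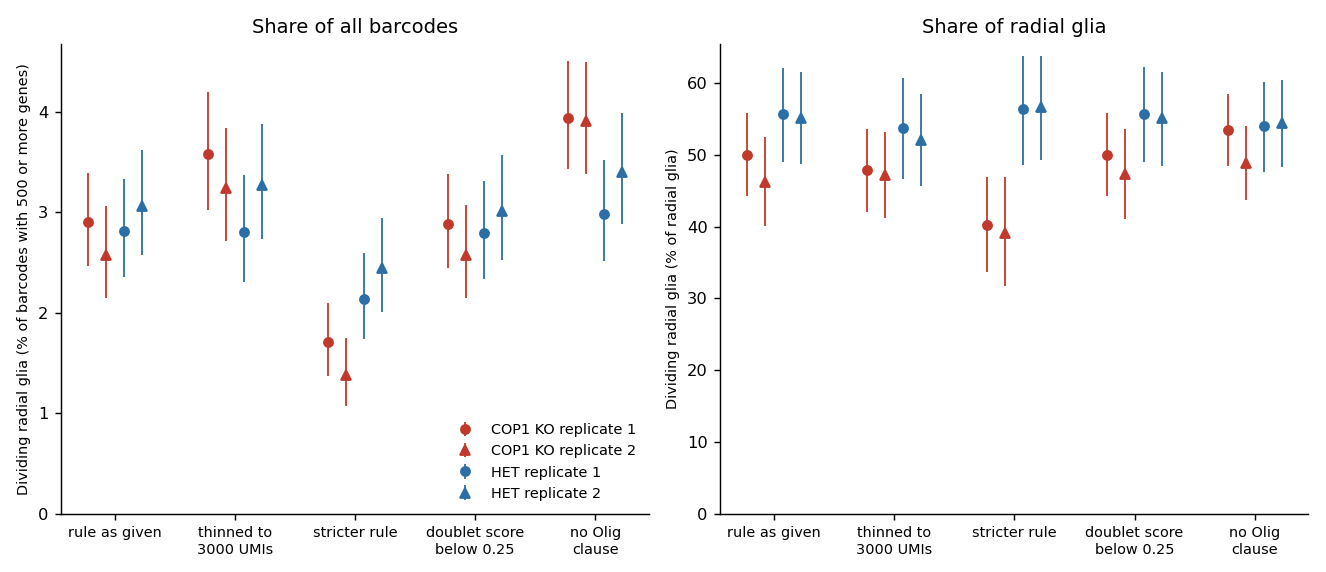
Dividing radial glia as a percentage of barcodes with 500 or more genes (left) and of all radial glia (right) in each library, under the rule as given and 4 other forms of it; bars are exact 95% intervals for counting error. The 2 COP1 KO libraries lie above HET on the left without the oligodendrocyte clause and below HET under the stricter rule, while on the right they lie lowest in each form.

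Gene expression was then compared on counts summed over the members of each library. Of 10170 genes tested by edgeR, 150 were higher in COP1 KO (1.47%) and 58 lower (0.570%), 208 in all (2.05%; edgeR quasi-likelihood test, Benjamini-Hochberg adjusted p below 0.05). With library totals in place of TMM factors the split was 132 higher and 81 lower. Without the barcodes that held 3 or more markers of another type, 192 of 9319 genes were higher (2.06%) and 88 lower (0.944%), and 185 genes were called both ways. Leaving out 1 library gave 359 calls without COP1 KO replicate 1, 603 without COP1 KO replicate 2, 94 without HET replicate 1 and 51 without HET replicate 2. The 22 genes of the rule were not tested. With all 4 libraries and all members, 1284 of the 10170 genes tested had an unadjusted edgeR p below 0.05. In every gene list below where edgeR called none, DESeq2 called none either. All 76 genes that DESeq2 called were among the edgeR calls, so it could add none to such a list. The median log2 ratio of COP1 KO over HET over all tested genes was −0.00, and 49.5% of genes lay above 0.

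The transcript of COP1 itself, listed under its older symbol Rfwd2 (chr1:159232156-159354872, RefSeq coordinates on GRCm38.p6), had 19.9 and 23.4 CPM in COP1 KO and 25.9 and 38.0 CPM in HET. Both COP1 KO values lay below both HET values, but the log2 ratio of −0.52 (SE 0.294) had an edgeR adjusted p of 0.513. The deleted part is not given, and 3′ tags outside it are still counted, so this does not check the genotype. The other ligase parts tested (Det1, Ddb1, Cul4a, Cul4b, Rbx1 and Dda1) had log2 ratios between −0.31 and 0.09, and none was called.

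Among the Tribbles adaptors, Trib1 rose. It had 230 and 228 CPM in COP1 KO members and 44.2 and 50.9 CPM in HET members. Trib1 was found in 61.7% ± 1.28 of COP1 KO members and 23.9% ± 3.12 of HET members, and in 5.57% of thinned neuron barcodes in COP1 KO and 4.78% in HET. Thinned members gave 41.2% in COP1 KO and 13.8% in HET. The log2 ratio was 2.32 (SE 0.144, edgeR adjusted p = 3.33e-06). Trib2 had 103 and 146 CPM in COP1 KO and 81.7 and 91.4 CPM in HET, with a log2 ratio of 0.57 (edgeR adjusted p = 0.155, and 0.0346 without the barcodes of other types). Trib3 had a single UMI in all members and was not tested.

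Of the 6 tested genes that encode COP1 substrates or their relatives, 3 fell and none rose, with a median log2 ratio of −0.68, beside 0.570% of all tested genes that fell. Etv5 (chr16:22381313-22439570), a PEA3-type ETS factor that acts downstream of FGF signals, had 7.80 and 12.2 CPM in COP1 KO members and 77.8 and 60.6 CPM in HET members. At least 1 UMI of Etv5 was found in 7.01% ± 1.59 of COP1 KO members and 41.9% ± 3.28 of HET members. Thinned members gave 3.32% in COP1 KO and 16.1% in HET, and thinned neuron barcodes 0.84% in COP1 KO and 2.59% in HET. Its log2 ratio was −2.73 (SE 0.299, edgeR adjusted p = 0.000393). This was the largest fall among called genes with a symbol, at least 20 CPM on average and no overlap of genotypes. Etv4, its close relative, had 6.93 and 6.10 CPM in COP1 KO and 21.1 and 26.7 CPM in HET (log2 ratio −1.80, SE 0.393, edgeR adjusted p = 0.0356). Etv1 had 16.46 and 21.3 CPM in COP1 KO and 27.9 and 25.1 CPM in HET (log2 ratio −0.43, edgeR adjusted p = 0.622).

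Jun, the transcript of the AP-1 subunit that COP1 targets, fell as well. It had 811 and 728 CPM in COP1 KO members and 1510 and 1535 CPM in HET members (log2 ratio −0.92, SE 0.102, edgeR adjusted p = 0.000407). Jun was found in 90.7% ± 1.65 of COP1 KO members and 97.7% ± 0.0614 of HET members. Thinned members gave 81.4% in COP1 KO and 95.4% in HET, and thinned neuron barcodes 54.8% in COP1 KO and 56.1% in HET. Members with 5 or more Jun UMIs made up 49.7% and 46.3% in COP1 KO and 80.6% and 82.1% in HET. These are transcript levels, and the amounts of the JUN and ETV proteins were not measured. The other AP-1 subunits and immediate early genes, which dissociation can also induce, were not called. Of 16 tested none passed, and 2 had an unadjusted p below 0.05, beside 1284 of all 10170 genes tested. The median log2 ratio of these 16 was 0.06. Their median was −0.04 without the barcodes of other types, where 1 of 13 was called, Ier3, an early response gene (log2 ratio 2.03, edgeR adjusted p = 0.0227). Fos, the usual partner of JUN, had 621 and 539 CPM in COP1 KO and 602 and 678 CPM in HET.

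**Figure D2:**
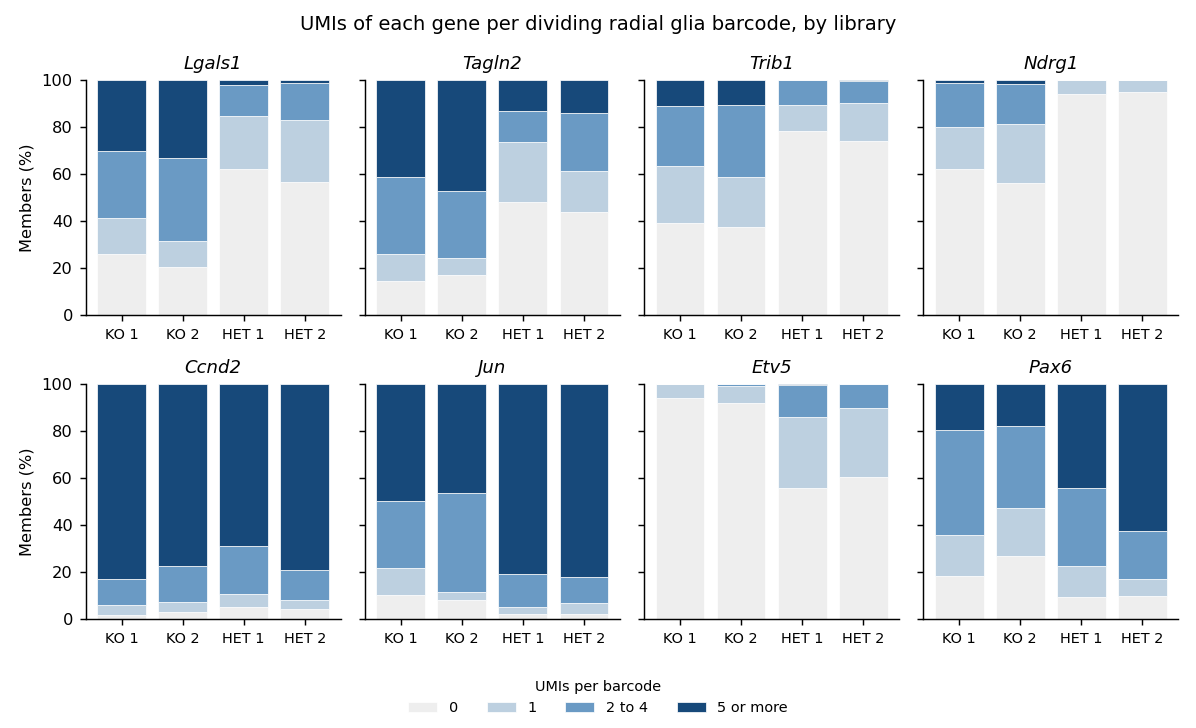
Percentage of dividing radial glia barcodes with 0, 1, 2 to 4 or 5 and more UMIs of 8 genes in each library; barcodes are not thinned, and COP1 KO barcodes are shallower. For Lgals1, 30.1% and 33.3% of COP1 KO members and 2.33% and 1.49% of HET members had 5 or more UMIs, while for Jun and Pax6 the HET members held more.

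Genes known as targets of AP-1 or as markers of injured or reactive cells lay higher in COP1 KO. Of the 28 genes in this list 19 were tested by edgeR, 10 rose and none fell, with a median log2 ratio of 1.25, beside 1.47% of all tested genes that rose and a median of −0.00. The list was written with earlier results of these libraries known, so its count is a description. The 9 others in the list were too rare to test. Lgals1 (chr15:78926725-78930465), the sugar-binding protein galectin-1, had 634 and 628 CPM in COP1 KO members and 94.2 and 88.9 CPM in HET members. It was found in 76.8% ± 4.11 of COP1 KO members and 40.6% ± 3.75 of HET members. Thinned members gave 60.2% in COP1 KO and 21.6% in HET, and thinned neuron barcodes 3.45% in COP1 KO and 1.51% in HET. The log2 ratio was 2.84 (SE 0.115, edgeR adjusted p = 5.81e-08).

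Ndrg1 is a gene induced by stress and low oxygen. It showed the largest rise among called genes with a symbol, 20 CPM or more on average and no overlap of genotypes. It had 97.9 and 95.5 CPM in COP1 KO and 7.69 and 5.66 CPM in HET (log2 ratio 3.91, SE 0.273, edgeR adjusted p = 1.02e-05). From 2 to 4 Ndrg1 UMIs were held by 29 and 21 COP1 KO members and 5 or more by 2 and 2, while no HET member held more than 1. Thinned neuron barcodes held Ndrg1 in 22.0% in COP1 KO and 20.8% in HET, against 23.7% of thinned COP1 KO members and 0.75% of thinned HET members. Ndrg1 was thus rarer in HET members than in neurons of the same libraries.

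Among the called genes of the list, Emp1, an epithelial membrane protein, had 109 and 130 CPM in COP1 KO and 18.3 and 8.89 CPM in HET (log2 ratio 3.22, SE 0.266, edgeR adjusted p = 5.91e-05). Tagln2, an actin-binding protein, had 734 and 806 CPM in COP1 KO and 215 and 243 CPM in HET (log2 ratio 1.80, SE 0.111, edgeR adjusted p = 3.33e-06). The 2 genotypes did not overlap for either gene. Anxa2 and S100a10, which form a complex at the cell membrane, had log2 ratios of 1.45 and 2.33. S100a10 had 56.3 and 41.7 CPM in COP1 KO and 10.6 and 9.70 CPM in HET, and 1 barcode held 47.7% and 39.0% of its COP1 KO UMIs and 54.5% and 33.3% of its HET UMIs. It remained past the threshold without the barcodes of other types (log2 ratio 2.12, edgeR adjusted p = 0.00619).

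The other 4 called genes of the list were the calcium-binding S100a11 (log2 ratio 1.25), the TWEAK receptor Tnfrsf12a (1.82), the tetraspan protein Tm4sf1 (1.42) and Plat (1.29), the tissue-type plasminogen activator. Without the barcodes of other types the ratio was 2.16 for S100a11 and 4.08 for Tm4sf1, and 43.3% of the Tm4sf1 UMIs of HET replicate 2 had come from 1 barcode. The injury-associated Cd44, Timp1 and Spp1 were among those too rare to test. Cnn3, an actin-binding calponin, and Flna, a filamin, had log2 ratios of 0.14 and 0.23 and were not called.

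Sequence upstream of the start site is shown for the 3 genes of this list whose RefSeq window (GRCm38.p6, 250 bases before to 50 bases after the start) held an AP-1 motif, the letters TGANTCA on either strand. Windows were at hand for 6 of the 10 called genes. These 6 genes had 7 windows, and the motif was in 3 of the windows, those of 3 genes. It was in 7.81% of the 32851 windows of all genes. Each run gives the 250 bases before the start site 5′ to 3′ on the strand of the gene, with the motif in capitals.

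Emp1, chr6:135362681-135362930, plus strand: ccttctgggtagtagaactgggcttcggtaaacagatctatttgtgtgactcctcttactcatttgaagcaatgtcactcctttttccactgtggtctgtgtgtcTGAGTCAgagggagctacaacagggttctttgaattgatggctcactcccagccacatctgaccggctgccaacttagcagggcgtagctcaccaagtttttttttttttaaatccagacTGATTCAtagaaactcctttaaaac
Anxa2, chr9:69453433-69453682, plus strand: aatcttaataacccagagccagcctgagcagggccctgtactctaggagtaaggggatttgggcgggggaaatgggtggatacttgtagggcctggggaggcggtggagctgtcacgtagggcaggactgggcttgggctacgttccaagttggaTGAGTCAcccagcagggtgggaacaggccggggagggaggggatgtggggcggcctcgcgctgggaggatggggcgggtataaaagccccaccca
S100a11, chr3:93520246-93520495, plus strand: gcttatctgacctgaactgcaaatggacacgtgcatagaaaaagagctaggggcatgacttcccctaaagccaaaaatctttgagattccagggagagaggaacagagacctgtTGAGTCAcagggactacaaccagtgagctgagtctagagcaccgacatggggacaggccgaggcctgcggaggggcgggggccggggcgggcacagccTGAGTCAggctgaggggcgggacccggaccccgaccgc

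The matches began 145 and 25 bases before the start in Emp1, 95 bases before it in Anxa2, and 136 and 38 bases before it in S100a11. A second Emp1 window, of another start site, held none. Among the 12 genes with the largest rises 6 had windows, and the motif was in Emp1, Ptgds and Rgs17. Among the 12 with the largest falls 7 had windows, and none held it. Neither set held the ETS letters CCGGAAGT (3.89% of all windows), and the CRE letters TGACGTCA (1.79% of all windows) were in Ltbp1 only. These are letter matches in short windows and say nothing of binding.

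Genes of the astrocyte lineage formed the next group, with 5 of 18 tested genes higher, none lower and a median log2 ratio of 0.28, beside 1.47% of all tested genes higher and 0.570% lower. Gfap, the intermediate filament of astrocytes, had 60.6 and 91.5 CPM in COP1 KO members and 4.80 and 10.5 CPM in HET members. It was found in 30.1% ± 10.3 of COP1 KO members and 6.04% ± 3.06 of HET members. Thinned members gave 15.7% in COP1 KO and 2.69% in HET, and thinned neuron barcodes 0.370% in COP1 KO and 0.0422% in HET. The log2 ratio of Gfap was 3.30 (SE 0.344, edgeR adjusted p = 0.000274). Aldh1l1, a folate enzyme of astrocytes, had 189 and 231 CPM in COP1 KO and 82.6 and 81.7 CPM in HET (log2 ratio 1.41, SE 0.140, edgeR adjusted p = 0.000225). Sparcl1, a secreted matrix protein, and Clu, the chaperone clusterin, had log2 ratios of 1.03 and 0.71. Gja1, the gap junction protein connexin 43, was called at 0.70 but not without the barcodes of other types (0.57, edgeR adjusted p = 0.139).

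S100b, a marker of more mature astrocytes, was not called: it had 13.9 and 8.13 CPM in COP1 KO and 13.5 and 8.08 CPM in HET, and Aqp4 was too rare to test. None of the 16 tested factors that switch radial glia toward gliogenesis was called, and their median log2 ratio was −0.16. Of these factors 5 had an unadjusted p below 0.05, beside 1284 of all 10170 genes tested. Nfia, such a factor, had 521 and 574 CPM in COP1 KO and 845 and 637 CPM in HET, and Sox9 424 and 404 CPM in COP1 KO and 528 and 499 CPM in HET.

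Of the tested oligodendrocyte genes outside the rule none of 7 was called. Nkx6-2, a homeobox factor of the oligodendrocyte lineage, had 9.53 and 32.5 CPM in COP1 KO and 2.88 and 3.23 CPM in HET, with a log2 ratio of 2.74 and an edgeR adjusted p of 0.0588, or 0.0159 without the barcodes of other types. Members could hold at most 1 of the 4 oligodendrocyte genes of the rule, so the list describes cells that had been chosen against this lineage. With the clause dropped, 681 barcodes passed and 126 genes were called.

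Radial glia identity genes moved in both directions. Of all tested genes 1.47% rose and 0.570% fell. Of 24 tested in this list, 4 rose and 5 fell, with a median log2 ratio of 0.01. The same counts held without the barcodes of other types. The risers were Vim, the intermediate filament vimentin (3054 and 3065 CPM in COP1 KO, 2526 and 2425 CPM in HET), Dbi, a lipid-binding protein, the growth factor Ptn and Tnc, the matrix protein tenascin-C. Their log2 ratios were 0.36, 0.38, 0.45 and 1.08. Tnc had 223 and 341 CPM in COP1 KO and 160 and 117 CPM in HET (SE 0.185, edgeR adjusted p = 0.00977).

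The fallers were led by Gas1, a co-receptor for hedgehog signals, with 268 and 334 CPM in COP1 KO and 569 and 577 CPM in HET (log2 ratio −0.87, SE 0.115, edgeR adjusted p = 0.00200). Pax6, a factor of cortical radial glia that drives neurogenesis, had 363 and 290 CPM in COP1 KO and 570 and 596 CPM in HET (log2 ratio −0.77, SE 0.124, edgeR adjusted p = 0.00637). Members with 5 or more Pax6 UMIs made up 19.6% and 17.9% in COP1 KO and 44.2% and 62.7% in HET. Sfrp1, a secreted Wnt antagonist, the SoxB factor Sox21 and Hes1, a Notch effector, had log2 ratios of −0.70, −0.69 and −0.53. Sox2 and Nes did not pass, with log2 ratios of 0.48 and 0.24. Outer radial glia genes gave 1 rise, Tnc, and 1 fall, Cdo1, a cysteine oxidase, at −1.27, of 8 tested. Over all tested genes 1.47% rose and 0.570% fell.

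Dorsal cortical patterning genes lay lower, with 3 of 14 tested genes called, all lower, 1 of 14 above 0 and a median log2 ratio of −0.33, beside 0.570% of all tested genes lower and 49.5% above 0. Emx2, a homeobox factor of cortical progenitors, had 105 and 120 CPM in COP1 KO and 183 and 184 CPM in HET (log2 ratio −0.65, SE 0.128, edgeR adjusted p = 0.0205). Tfap2c, an AP-2 factor of radial glia, had 108 and 112 CPM in COP1 KO and 191 and 205 CPM in HET (log2 ratio −0.79, SE 0.124, edgeR adjusted p = 0.00536), and Pax6 is also in this list. Emx1 had a log2 ratio of −0.59 and an edgeR adjusted p of 0.131. The 6 ganglionic eminence markers, of which 2 were tested and none was called, summed to 75.4 and 126 CPM in COP1 KO and 56.7 and 80.8 CPM in HET, and the genotypes overlapped. Their part in the dorsal result was not tested. Among the 323 members that held Emx1 or Emx2 and none of 5 ventral genes, 57 of all genes were called.

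Neurogenic genes were split. Neurog2, which commits progenitors to an excitatory neuron fate, had 58.0 and 52.9 CPM in COP1 KO and 94.2 and 129 CPM in HET (log2 ratio −0.95, SE 0.192, edgeR adjusted p = 0.0231). Sox4, a factor of newborn neurons, had 1114 and 993 CPM in COP1 KO and 757 and 819 CPM in HET (log2 ratio 0.48, SE 0.107, edgeR adjusted p = 0.0383). The other 13 of 15 tested were not called, and the median was 0.07. Over all tested genes 1.47% rose and 0.570% fell. Of 16 Notch pathway genes Hes1 alone was called, and the median was −0.27, with Notch1 at 141 and 144 CPM in COP1 KO and 182 and 165 CPM in HET. Members with any UMI of Eomes, the marker of intermediate progenitors, had been left out by the rule.

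Targets of ERK and ETS signals gave 2 rises and 3 falls among 18 tested, with a median of 0.24. Over all tested genes 1.47% rose and 0.570% fell. Beside Etv4 and Etv5, Lipg, an endothelial-type lipase, fell to 7.80 and 15.2 CPM in COP1 KO, against 35.6 and 47.7 CPM in HET (log2 ratio −1.83, SE 0.342, edgeR adjusted p = 0.0152). Rcan1, an inhibitor of calcineurin, rose to 160 and 156 CPM in COP1 KO, against 43.2 and 59.8 CPM in HET (log2 ratio 1.66, SE 0.171, edgeR adjusted p = 0.000254), and Pcp4, which binds calmodulin, had a log2 ratio of 1.37. The feedback inhibitors Spry1, Spry2 and Dusp6 had log2 ratios of 1.11, 0.42 and 0.63, and none was called.

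**Figure D3:**
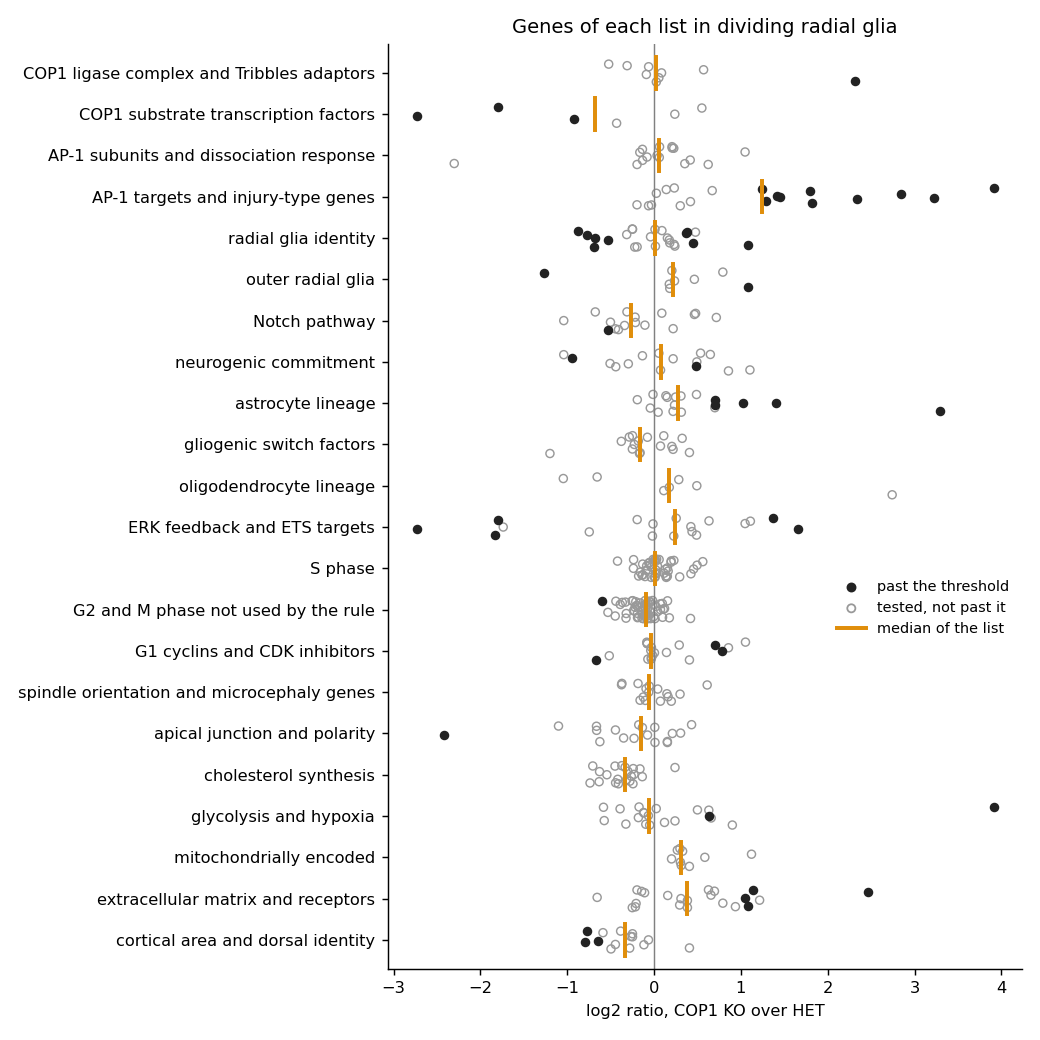
log2 ratio of COP1 KO over HET for each tested gene of 22 gene lists in dividing radial glia, with filled points for genes past an edgeR adjusted p of 0.05 and a bar at the median of the list. The AP-1 target and injury list has its median at 1.25 and the lists of substrates, cholesterol synthesis and dorsal identity have theirs at −0.68, −0.33 and −0.33, while those of S phase, G2 and M phase and spindle genes lie between −0.10 and 0.01.

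Cell cycle genes outside the rule differed little. Of 43 S phase genes none was called, and the median log2 ratio was 0.01. An unadjusted p below 0.05 was found for 3 of the 43, beside 1284 of all 10170 genes tested. Of 61 G2 and M phase genes 1 fell, Hmgb2, a chromatin protein of dividing cells, with 435 and 500 CPM in COP1 KO and 754 and 714 CPM in HET (log2 ratio −0.59, SE 0.106, edgeR adjusted p = 0.0113). Of all tested genes 0.570% fell and 49.5% lay above 0. The G2 and M list had 12 genes above 0 and a median of −0.10. Since the members were chosen for 6 genes of these phases, the list is not independent of the choice. Spindle and microcephaly genes gave no call among 16, with 1 at an unadjusted p below 0.05, beside 1284 of all 10170 genes tested.

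Of the D cyclins, which carry growth signals into G1, Ccnd1 and Ccnd2 rose. Ccnd2 had 1844 and 1731 CPM in COP1 KO members and 1094 and 1194 CPM in HET members (log2 ratio 0.70, SE 0.0974, edgeR adjusted p = 0.00274). Ccnd1 had 149 and 143 CPM in COP1 KO and 75.9 and 100 CPM in HET (log2 ratio 0.78, SE 0.157, edgeR adjusted p = 0.0230). Ccnd3 had a log2 ratio of 0.41 and was not called. Mycn, a growth-promoting MYC factor, fell to 145 and 162 CPM in COP1 KO, against 261 and 247 CPM in HET (log2 ratio −0.67, SE 0.113, edgeR adjusted p = 0.00840). The other 16 cyclin-dependent kinases, inhibitors and regulators tested were not called, and the median of the 19 was −0.03. Over all tested genes 1.47% rose and 0.570% fell.

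Metabolic lists held few calls. None of 21 cholesterol synthesis genes was called, and 7 had an unadjusted p below 0.05, beside 1284 of all 10170 genes tested. Of the 21, 1 lay above 0, and their median log2 ratio was −0.33. Hmgcs1, the enzyme that makes the first committed intermediate, had 488 and 629 CPM in COP1 KO and 763 and 813 CPM in HET (edgeR adjusted p = 0.0944, or 0.0318 without the barcodes of other types). Of 9 mitochondrially encoded genes none was called, and 6 had an unadjusted p below 0.05, beside 1284 of all 10170 genes tested. All 9 lay above 0, and the median was 0.31. Among 20 glycolysis and hypoxia genes Ndrg1 and Aldoa rose, beside 1.47% of all tested genes. Aldoa, the general aldolase, had 325 and 283 CPM in COP1 KO and 183 and 224 CPM in HET (log2 ratio 0.64, SE 0.128, edgeR adjusted p = 0.0232).

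Of 18 genes of apical junctions and polarity 1 fell, Pard6b, a polarity protein of the PAR complex, with 3.47 and 4.07 CPM in COP1 KO and 15.4 and 26.7 CPM in HET (log2 ratio −2.42, SE 0.502, edgeR adjusted p = 0.0267). Over all tested genes 1.47% rose and 0.570% fell. Among 22 matrix genes Tnc, Ncan, Sparc and Col1a1 rose. In the COP1 KO libraries 1 barcode held 100% and 81.3% of the Col1a1 UMIs. Without the barcodes of other types Col1a1 was too rare to test, and 3 of 14 matrix genes rose, beside 2.06% of all. Sparc, a matrix-binding glycoprotein, had 1283 and 1164 CPM in COP1 KO and 528 and 626 CPM in HET (log2 ratio 1.14, SE 0.114, edgeR adjusted p = 0.000225). Ncan, the proteoglycan neurocan, had 298 and 533 CPM in COP1 KO and 227 and 190 CPM in HET (log2 ratio 1.04, SE 0.203, edgeR adjusted p = 0.0189).

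Markers of other cell types were among the calls. All 4 tested meningeal markers (Col1a1, Col1a2, Col3a1 and Dcn) were called higher, and 1 barcode held 161 of 196 meningeal UMIs in COP1 KO replicate 1 and another 75 of 122 in replicate 2. Summed, the 5 markers stood at 170 and 124 CPM in COP1 KO and 30.7 and 33.1 CPM in HET. Without the barcodes of other types they stood at 21.4 and 48.6 CPM in COP1 KO and 9.24 and 17.8 CPM in HET. Of the 4, Dcn alone was still frequent enough to test, and it was not called. All 4 tested hemoglobin genes were called higher. Without those barcodes Hbb-bs and Hbb-bt were tested and not called, and Hba-a1 and Hba-a2 were too rare to test. Their near-identical copies share reads. Of 7 vessel markers none was called, with 924 and 642 CPM in COP1 KO and 460 and 743 CPM in HET. Without the barcodes of other types they stood at 16.1 and 53.3 CPM in COP1 KO and 18.5 and 15.9 CPM in HET. All were then too rare to test. Of 7 tested neuron markers 1, Tubb3, a neuronal tubulin, fell to 115 and 179 CPM in COP1 KO, against 269 and 277 CPM in HET (log2 ratio −0.85, edgeR adjusted p = 0.0132). Without the barcodes of other types its log2 ratio was −0.89 (edgeR adjusted p = 0.00350). Thinned members held Tubb3 equally often, in 23.6% in COP1 KO and 23.6% in HET. In each library 1 member held a large part of its UMIs, 18.8% and 24.4% in COP1 KO and 25.4% and 16.4% in HET. Over all tested genes 0.570% fell.

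Beside those already described, the 12 genes with the largest rises held Tesc, a calcineurin-like calcium sensor, with 97.0 and 153 CPM in COP1 KO and 17.3 and 24.3 CPM in HET (log2 ratio 2.61, SE 0.262, edgeR adjusted p = 0.000225). Prokr1, a prokineticin receptor, had 65.8 and 56.9 CPM in COP1 KO and 11.5 and 14.6 CPM in HET (log2 ratio 2.28). Rgs17, which damps G protein signals, had 46.8 and 36.6 CPM in COP1 KO and 5.77 and 10.5 CPM in HET (log2 ratio 2.38), and Gm29521 81.4 and 124 CPM in COP1 KO and 25.0 and 22.6 CPM in HET (log2 ratio 2.15). For each of these genes both COP1 KO libraries lay above both HET libraries, as the naming rule required. Ptgds, prostaglandin D synthase, had 97.0 and 24.4 CPM in COP1 KO and 6.73 and 7.28 CPM in HET (log2 ratio 3.19, SE 0.603, edgeR adjusted p = 0.0157), and 1 barcode held 45.5% of its UMIs in COP1 KO replicate 1. Dcn, the matrix proteoglycan decorin, had 44.2 and 44.7 CPM in COP1 KO and 5.77 and 8.89 CPM in HET (log2 ratio 2.62), and was not called without the barcodes of other types (log2 ratio 1.68, edgeR adjusted p = 0.126).

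The 12 largest falls began with Etv5 and with Dct, dopachrome tautomerase of the melanin pathway, which had 9.53 and 17.3 CPM in COP1 KO and 45.2 and 80.0 CPM in HET (log2 ratio −2.20, SE 0.352, edgeR adjusted p = 0.00637). Slc14a2, a urea transporter, had 14.7 and 25.4 CPM in COP1 KO and 70.1 and 95.4 CPM in HET (log2 ratio −2.01, SE 0.273, edgeR adjusted p = 0.00234). Scrg1, named for scrapie-responsive expression, had 38.1 and 43.7 CPM in COP1 KO and 131 and 103 CPM in HET (log2 ratio −1.45, SE 0.194, edgeR adjusted p = 0.00217). The other 8 were Lipg, Col2a1, Rbm20, Ltbp1, Adamts18, Fam13c, Pter and Sema5a, with log2 ratios between −1.83 and −1.42. Col2a1 encodes a fibrillar collagen, Ltbp1 a protein that holds latent TGF-beta, and Adamts18 a secreted protease. All 8 stood between 7.80 and 25.1 CPM in COP1 KO members and between 35.6 and 68.7 CPM in HET members.

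**Figure D4:**
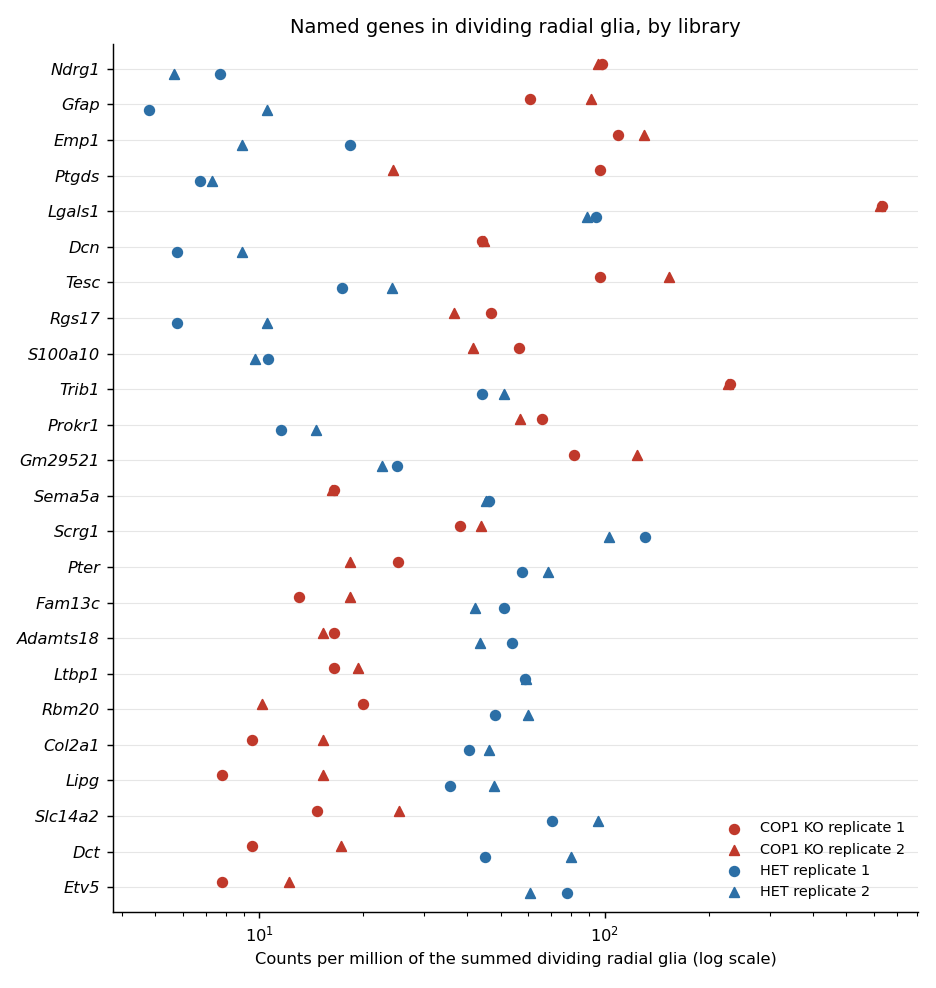
CPM of the summed dividing radial glia in each of the 4 libraries, on a log axis, for the 12 genes with the largest rises and the 12 with the largest falls. Replicates of 1 genotype lie close together for Lgals1 (634 and 628 CPM in COP1 KO, 94.2 and 88.9 CPM in HET) and far apart for Ptgds in COP1 KO (97.0 and 24.4 CPM).

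The genotype difference in dividing radial glia was then set against 2 like classes of the same libraries. Non-dividing radial glia passed the same rule with no UMI of the 6 division genes (348 barcodes), and dividing intermediate progenitors held Eomes and 2 or more division genes (322 barcodes). Of 8371 genes tested in non-dividing radial glia 15 were higher (0.179%) and 14 lower (0.167%), and of 8260 in intermediate progenitors 5 were higher (0.0605%) and 2 lower (0.0242%). These classes held fewer barcodes, so fewer calls there do not show a smaller effect, and the difference between classes was tested itself, in a model that kept each library as a block.

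For most of the named genes that difference was not past the threshold. Gfap had log2 ratios of 3.30 in dividing radial glia, 3.86 in non-dividing radial glia and 3.23 in intermediate progenitors, and was called in each. Tesc had 2.61, 3.11 and 2.65 and was also called in each. Lgals1 had 2.84, 2.24 and 1.10, and the difference between dividing radial glia and intermediate progenitors, 1.74, had an edgeR adjusted p of 0.0741. That difference was 0.36 without the barcodes of other types (edgeR adjusted p = 0.973). In intermediate progenitors Lgals1 had 236 and 192 CPM in COP1 KO and 45.7 and 169 CPM in HET. Jun had −0.92, −0.55 and −0.74, and Etv5 −2.73, −1.96 and −3.50.

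Against non-dividing radial glia 19 of 10457 genes differed (0.182%), all more positive in dividing radial glia in this fit. Under the stricter rule 7 differed, 3 more positive and 4 more negative, and none of them was among the 19. Ndrg1 was one: in non-dividing radial glia it had 134 and 96.1 CPM in COP1 KO and 62.2 and 37.5 CPM in HET, and the difference of log2 ratios was 2.72 (SE 0.407, edgeR adjusted p = 0.0115). Several of the 19 are vessel genes such as Cldn5, Cd93 and Pecam1. Without the barcodes of other types 1 of 9150 genes differed (0.0109%), the lipid carrier Apoe, which was not among the 19. Pax6, Emx2 and Gas1 had log2 ratios of −0.77, −0.65 and −0.87 in dividing and −0.07, 0.51 and 0.24 in non-dividing radial glia. The differences were −0.67, −1.12 and −1.07, with edgeR adjusted p of 0.207, 0.126 and 0.0836. Without the barcodes of other types they were −0.24, −0.72 and −0.68, with edgeR adjusted p of 0.960, 0.551 and 0.175.

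Against intermediate progenitors 13 of 10254 genes differed (0.127%), all more positive in dividing radial glia in this fit. Under the stricter rule 17 differed, 5 more positive and 12 more negative, and 3 of them were among the 13. Ccnd2 was one: in intermediate progenitors its log2 ratio was −0.06, and the difference was 0.76 (edgeR adjusted p = 0.0113). Ccnd1 had −0.73 in intermediate progenitors and a difference of 1.53 (edgeR adjusted p = 0.0350). Aldoa (0.99), Ptgds (4.66) and S100a10 (4.84) also differed, beside meningeal genes such as Col3a1. In intermediate progenitors Ptgds had 60.3 and 63.2 CPM in COP1 KO and 11.4 and 342 CPM in HET, and S100a10 3.26 and 7.91 CPM in COP1 KO and 8.90 and 57.02 CPM in HET, so HET replicate 2 stood apart for both. Without the barcodes of other types the difference was −0.40 for Ptgds (edgeR adjusted p = 0.988), 2.17 for S100a10 (edgeR adjusted p = 0.866) and 0.99 for Aldoa (edgeR adjusted p = 0.245). Without the barcodes of other types 3 of 9263 genes differed (0.0324%), Ccnd1 (1.68), Ccnd2 (0.95) and Fabp7.

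**Figure D5:**
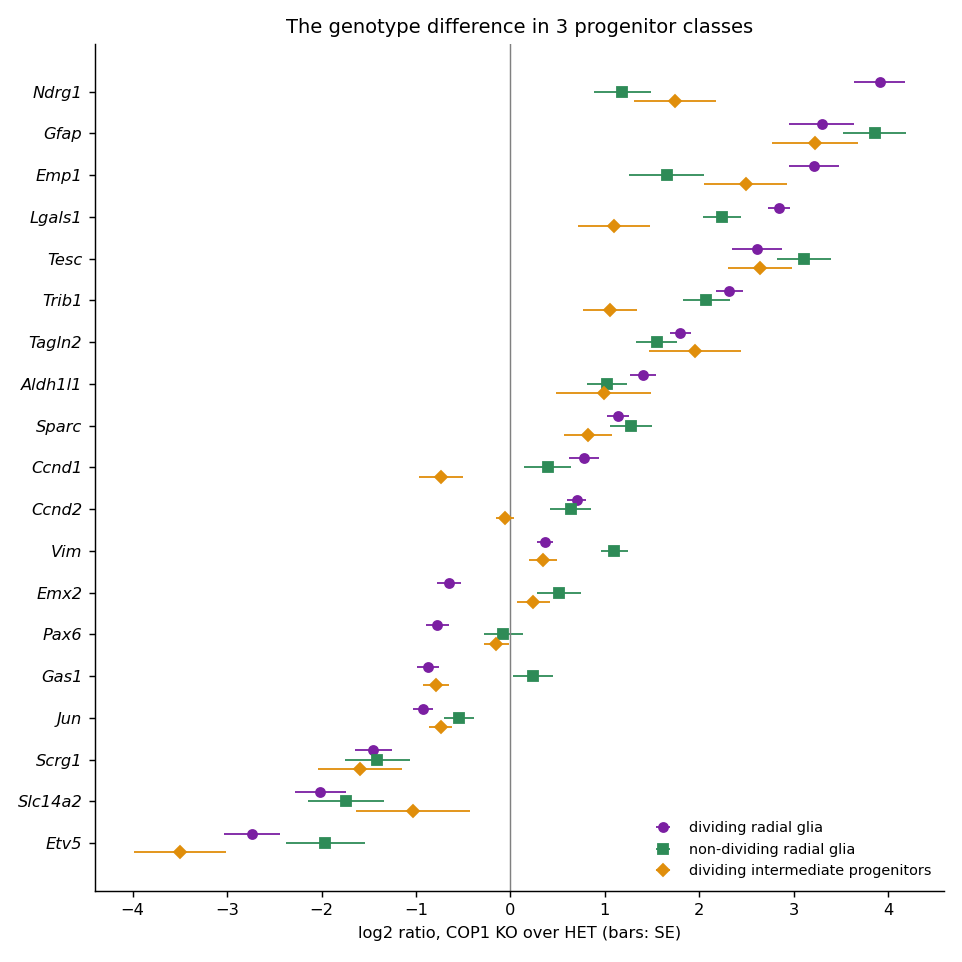
log2 ratio of COP1 KO over HET (points) with its SE (bars) for 19 genes in dividing radial glia, non-dividing radial glia and dividing intermediate progenitors, which come from the same 4 libraries. Gfap lies at 3.30, 3.86 and 3.23 in the 3 classes, while Ccnd2 lies at 0.70 in dividing radial glia and at −0.06 in intermediate progenitors.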

How the data were processed

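The authors deposited 1 table for each of the 4 libraries, with raw counts of genes in rows and barcodes in columns. Per the submitters' processing notes, the aligner was GSNAP and the build GRCm38 (mm10). For the counter, annotation, UMI collapsing and barcode calling, nothing is given in the sources used here. Each table had 36528 gene rows, of which 3065 carried only a number and held 1.69% of the counts. In 33 groups genes had identical counts in every barcode, and 40 copies (1.33% of counts) were removed.

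The members and gene lists were chosen with earlier results of these data known, so neither is independent of them. Raw counts were summed over the members of each library and tested with edgeR 4.0.16 in R 4.3.3 (quasi-likelihood F-test, TMM, filterByExpr, Benjamini-Hochberg over all genes, threshold 0.05), tested before on simulated data. The SE is the absolute log2 ratio over the square root of F. CPM are counts over the summed total. The rule for named genes took the 12 largest rises and falls among called genes with a symbol, at least 20 CPM on average and no overlap of genotypes. It also took list members that passed, and the COP1 gene, Etv1, Etv4, Etv5, Jun and Tribbles genes. Whether the samples differ by litter or batch is not given, and the p-values measure only the spread between 2 libraries of each genotype, 1 per mouse, with edgeR sharing that estimate across genes. Scrublet (scanpy 1.11.5) marked 15 barcodes (0.0789%) by its own threshold, too few to be credible; 3 and 1 COP1 KO members and 2 and 4 HET members scored 0.25 or more and stayed in. Alternatives covered the scaling, the filter, each library left out, DESeq2 1.42.0, thinning to 3000 UMIs, sex as a covariate and other forms of the rule.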

Additional observations from a re-analysis of the deposited data

Results flagged for a closer look

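The genotype difference was not the same in each progenitor class for some genes, by an edgeR test of the difference between classes that kept each library as a block. Between dividing and non-dividing radial glia 19 genes differed at an adjusted p below 0.05, among the named genes Ndrg1 (difference of log2 ratios 2.72), Dcn (3.04) and Rgs17 (3.12). Rgs17 had a log2 ratio of 2.38 in dividing and −0.73 in non-dividing radial glia. Dcn had 2.62 and −0.37, and 1 member barcode held 78.4% of its UMIs in COP1 KO replicate 1. Without barcodes holding 3 or more markers of another cell type the Ndrg1 difference was 1.52 (edgeR adjusted p = 0.803), that of Rgs17 2.64 (edgeR adjusted p = 0.0558) and that of Dcn 0.27 (edgeR adjusted p = 0.997).

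Between dividing radial glia and dividing intermediate progenitors 13 genes differed, among the named genes Ptgds (4.66), S100a10 (4.84), Ccnd1 (1.53), Ccnd2 (0.76), Aldoa (0.99) and Col3a1 (10.26). The Col3a1 value comes from few barcodes: 1 member held 82.1% and 86.2% of its UMIs in the COP1 KO libraries and 70.0% and 27.3% in the HET libraries. In intermediate progenitors Col3a1 stood at 0 CPM in both COP1 KO libraries and at 1.27 and 106 CPM in the HET libraries, so the difference has no firm size. HET replicate 2 was also high for Ptgds and S100a10 in intermediate progenitors, and without the barcodes of other types their differences were −0.40 (edgeR adjusted p = 0.988) and 2.17 (edgeR adjusted p = 0.866). The 2 cyclins were called also without the barcodes of other types, at 1.68 and 0.95.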

How the results depend on the processing

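The 208 calls became 529 with no filter on low counts, 121 with members thinned to 3000 UMIs, 123 with sex as a covariate, 76 with DESeq2 (of 7212 genes given an adjusted p), 4 when every member with any UMI of another type's marker was left out (73 members stayed), 126 without the oligodendrocyte clause and 57 among members with Emx1 or Emx2 and none of 5 ventral genes. With 1 library left out they ranged from 51 to 603, at 51 and 94 after leaving out HET replicate 2 and 1, and at 359 and 603 after leaving out COP1 KO replicate 1 and 2, the lone library being assumed to vary like the other group. The count of genes that differed from non-dividing radial glia, 19, was 147 with no filter, 7 under the stricter rule (none of the 19), 60 with doublet scores below 0.25, 1 without barcodes of other types (not among the 19), and 0 to 93 with 1 library left out (0 after leaving out COP1 KO replicate 1 or HET replicate 2, 67 after HET replicate 1, 93 after COP1 KO replicate 2). The count for intermediate progenitors, 13, was 25 with library totals, 17 under the stricter rule (5 more positive, 12 more negative, 3 of the 13), 73 with no filter, 4 with doublet scores below 0.25, 3 without barcodes of other types, and 0 to 53 with 1 library left out (0 after HET replicate 2, 47 after COP1 KO replicate 1, 53 after HET replicate 1). The share of dividing radial glia among barcodes turned to 0.375 points when thinned and 0.732 points without the oligodendrocyte clause, from −0.364 to −0.0366 with 1 library left out. The dividing share of radial glia stayed negative in each form tried, from −9.13 to −5.37 points with 1 library left out. The causes were not tested. No named gene changed direction. Over all named genes and the settings that tested them, the outcome stayed the same in 765 cases. These include genes such as Rfwd2 and Etv1 that were not called and stayed so. Calls were lost in 243 cases and gained in 3. Lgals1, Etv5, Tesc, Prokr1, Gm29521 and Scrg1 kept theirs in each setting that tested them, while 42 of the named genes lost theirs without HET replicate 2 and 25 without HET replicate 1. Tagln2, Sparc and Tnfrsf12a, named from the lists, also kept their calls in each setting that tested them. The alternatives on barcodes of other types, the oligodendrocyte clause and Emx genes were chosen after seeing the data. No paired analysis was possible because the labels give no replicate number, litter or batch that would pair the mice. The fit with sex as a covariate, which sets replicate 1 beside replicate 1, lost the calls of 14 named genes: Fam13c, Etv4, S100a11, Vim, Hes1, Ptn, Dbi, Neurog2, Sox4, Gja1, Ccnd1, Aldoa, Ncan and Emx2. Depth limits rare genes: Etv5 at 7.80 CPM in COP1 KO replicate 1 rests on 9 UMIs.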

Other observations

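Sox3, a SoxB factor of neural progenitors, differed between the mice of 1 genotype: it had 95.3 and 15.2 CPM in the COP1 KO libraries and 50.9 and 50.9 CPM in the HET libraries, with a log2 ratio of 0.23 (edgeR adjusted p = 0.912). Junb, an AP-1 subunit, had 294 and 141 CPM in COP1 KO and 101 and 253 CPM in HET, and Insm1, a factor of neuronal commitment, 111 and 40.7 CPM in COP1 KO and 43.2 and 32.3 CPM in HET. These genes were chosen after their values were seen.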
